A study of Homo sapiens with 6 samples.

Results

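The genes of the SR splicing factors SRSF1, SRSF2, SRSF3, SRSF4, SRSF5, SRSF6, SRSF7, SRSF9, SRSF10 and SRSF11 were examined for peaks of N6-methyladenosine (m6A) in the RNA of HEK293T cells. A peak was counted for a gene when its centre lay in the gene's hg19 interval on the gene's strand. Of 61147 deposited peaks, 21 met this rule, 7 in each of the 3 lists, and they formed 9 of the 25737 regions made by merging overlapping peaks of the same strand. Peaks were listed for 5 of the 10 genes: SRSF1, SRSF4, SRSF7, SRSF9 and SRSF11. No peak was listed in any list for SRSF2, SRSF3, SRSF5, SRSF6 or SRSF10. The deposited lists carry no gene names, so membership rests on position and strand alone, and the label of the group could not be checked against expression.

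All libraries came from wild-type HEK293T, an established line derived from human embryonic kidney and expressing a viral T antigen. Methylated RNA immunoprecipitation and sequencing (MeRIP-seq) was run 3 times, and each run gave an immunoprecipitated (IP) library and an input library. Each deposited list sets an IP library against its own input, and there is no treated or mutant group. The labels do not state whether the 3 runs, MeRIP-1, MeRIP-2 and MeRIP-3, used separate cultures, so the spread between lists may be technical.

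SR proteins bind RNA through RNA recognition motifs and carry a tail rich in arginine and serine, through which they recruit the splicing machinery to exons. Many of their genes control their own level by splicing in a poison exon that sends the transcript to decay. m6A is added to nascent RNA mostly by METTL3 with METTL14, and the nuclear m6A reader YTHDC1 is known to bind SRSF3 and SRSF10. The series concerns METTL16, another m6A methyltransferase, and SF3B4, a subunit of the splicing complex SF3b.

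Each peak has a score given by the authors. The lowest score listed was 50, and 17.9% of all peaks were at 3100 or more. These values have the form of a MACS score, which grows with minus the log of a p-value, although no header states it. Scores were therefore used to describe peaks, and a ratio of scores is not a fold of methylation. A score of 3100 is called the ceiling below.

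SRSF4, known as SRp75 and the largest of the classical SR proteins, held 11 of the 21 peaks and 4 of the 9 regions. The widest region of the whole group lay at the 3' end of the gene, at chr1:29474250-29475738 on the minus strand, 1489 bp wide. It scored 3100 in MeRIP-1, 3100 in MeRIP-2 and 3100 in MeRIP-3. The region was thus at the ceiling in every list, with the same start and end to the base. Its downstream edge is also the end of the gene interval, and the source of the intervals is not stated. If they were drawn with these peaks in view, the match at both ends of SRSF4 follows from the rule and is no finding. At the ceiling in all 3 lists were 2 of the 9 SR regions, this one and one in SRSF11, beside 11.2% of all regions.

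Upstream of it, SRSF4 had a region of 90 bp at chr1:29476615-29476704, the narrowest of the group. It scored 3100 in MeRIP-2 and 3100 in MeRIP-3 and was not listed in MeRIP-1. A region of 215 bp at chr1:29481208-29481422 scored 2151.59 in MeRIP-1, 3100 in MeRIP-2 and 3100 in MeRIP-3, with identical edges. The fourth region lay at the 5' end of the gene, at chr1:29508158-29508637, and scored 761.88 in MeRIP-1, 1564.95 in MeRIP-2 and 1851.15 in MeRIP-3. Its highest score was 2.43 times its lowest, beside a median ratio of 1.94 over the 11131 regions of all 3 lists that were below the ceiling in each. Its upstream edge in MeRIP-1 and MeRIP-3 is likewise the interval's own end, and in MeRIP-2 the peak stopped 63 bp short of it. MeRIP-1 had the lowest score in the 215 bp region and the 5' end region of SRSF4, and it lacked the 90 bp region. Over the series, 12377 regions were found in all 3 lists and not at the ceiling in each. The lowest score was in MeRIP-1 alone for 29.9% of them, in MeRIP-2 alone for 39.4% and in MeRIP-3 alone for 30.7%. These shares do not cover regions missing from a list, such as the 90 bp region. In the SRSF9 region the lowest score was in MeRIP-2.

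**Figure D1:**
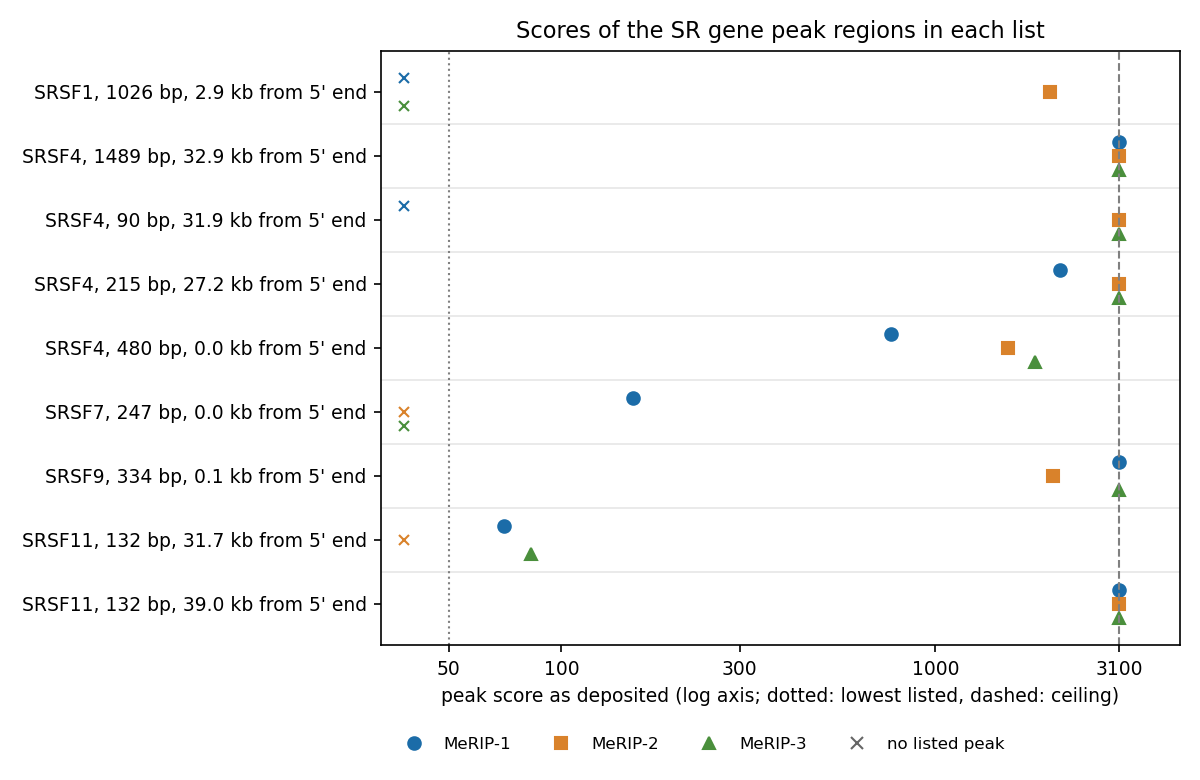
Deposited score (log axis) of each of the 9 SR regions in MeRIP-1 (circle), MeRIP-2 (square) and MeRIP-3 (triangle), with the region's width and its distance from the 5' end of the gene; a cross marks a list with no peak there. SRSF4 and SRSF11 each have a region at 3100 in all 3 lists, while the weaker region of SRSF11 lies near the lower limit of 50, at 70.13 and 83.14, and the SRSF7 peak is at 155.05.

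SRSF9, a small SR protein also named SRp30c, had a single region, 334 bp wide, at chr12:120907225-120907558 on the minus strand. It scored 3100 in MeRIP-1, 2065.32 in MeRIP-2 and 3100 in MeRIP-3. It lay 82 bp inside the 5' end of the gene interval, and its edges were identical in the 3 lists. No second peak was listed along the remaining 7755 bp towards the 3' end.

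SRSF11, known as p54, had 2 regions of the same width, 132 bp, both well inside the gene. The stronger, at chr1:70710367-70710498 on the plus strand, scored 3100 in each of MeRIP-1, MeRIP-2 and MeRIP-3, with identical edges. The weaker, at chr1:70703108-70703239, scored 70.13 in MeRIP-1 and 83.14 in MeRIP-3 and was not listed in MeRIP-2. These 2 scores were near the lowest listed, with 8.56% of the peaks of MeRIP-1 and 12.6% of those of MeRIP-3 scoring lower. The regions lay 31748 and 39007 bp from the 5' end of an interval of 47376 bp.

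SRSF1 and SRSF7 had a peak in a single list each. SRSF1, the founding member of the family (ASF/SF2), had a peak of 1026 bp at chr17:56080808-56081833 on the minus strand, near the middle of the gene. It scored 2029 in MeRIP-2, where 77% of peaks scored lower, and it was not listed in MeRIP-1 or MeRIP-3. SRSF7, which has a zinc knuckle beside its RNA recognition motif and acts as an adaptor for mRNA export, had a peak of 247 bp at chr2:38978371-38978617 on the minus strand. It lay 19 bp inside the 5' end of the gene and scored 155.05 in MeRIP-1, above 28.4% of that list, with no peak in MeRIP-2 or MeRIP-3. The single-list peaks of SRSF1 and SRSF7 thus stood far apart in score.

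By protein architecture, 3 of the 5 genes whose proteins carry a pair of RNA recognition motifs had a listed peak (SRSF1, SRSF4 and SRSF9), and SRSF5 and SRSF6 had none. Of the 4 genes whose proteins carry a single motif and no zinc knuckle, SRSF11 had peaks and SRSF2, SRSF3 and SRSF10 had none. SRSF7, whose protein carries a single motif and a zinc knuckle, was grouped apart and had a listed peak. SRSF1 and SRSF7 count here through a single list each. The share of all genes that hold a peak was not computed here, so these counts have no background and are a description. Regions in all 3 lists were found in SRSF4, SRSF9 and SRSF11.

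By the highest score of each gene, SRSF4 and SRSF11 were level at a log2 score of 11.60 ± 0.00 (SD, n = 3 lists), both held at the ceiling, and SRSF9 came next at 11.40 ± 0.34 (SD, n = 3 lists). SRSF4 and SRSF9 differed in 1 of 3 lists, by a mean log2 score of 0.20 ± 0.34 (SD, n = 3 lists). Both were at the ceiling in MeRIP-1 and MeRIP-3, and SRSF11 and SRSF4 were level in every list. With at most 1 list that differs, the outcome of a sign-flip permutation test over lists is fixed beforehand, so no p is given. SRSF1 at 10.99 and SRSF7 at 7.28 had a value in a single list and were not compared. The ceiling hides any difference above it, so the order of the 3 leading genes could not be settled. SRSF11 is level with SRSF4 by its highest score and not by its median score, which averaged a log2 value of 9.82 for SRSF11 and 11.42 for SRSF4.

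**Figure D2:**
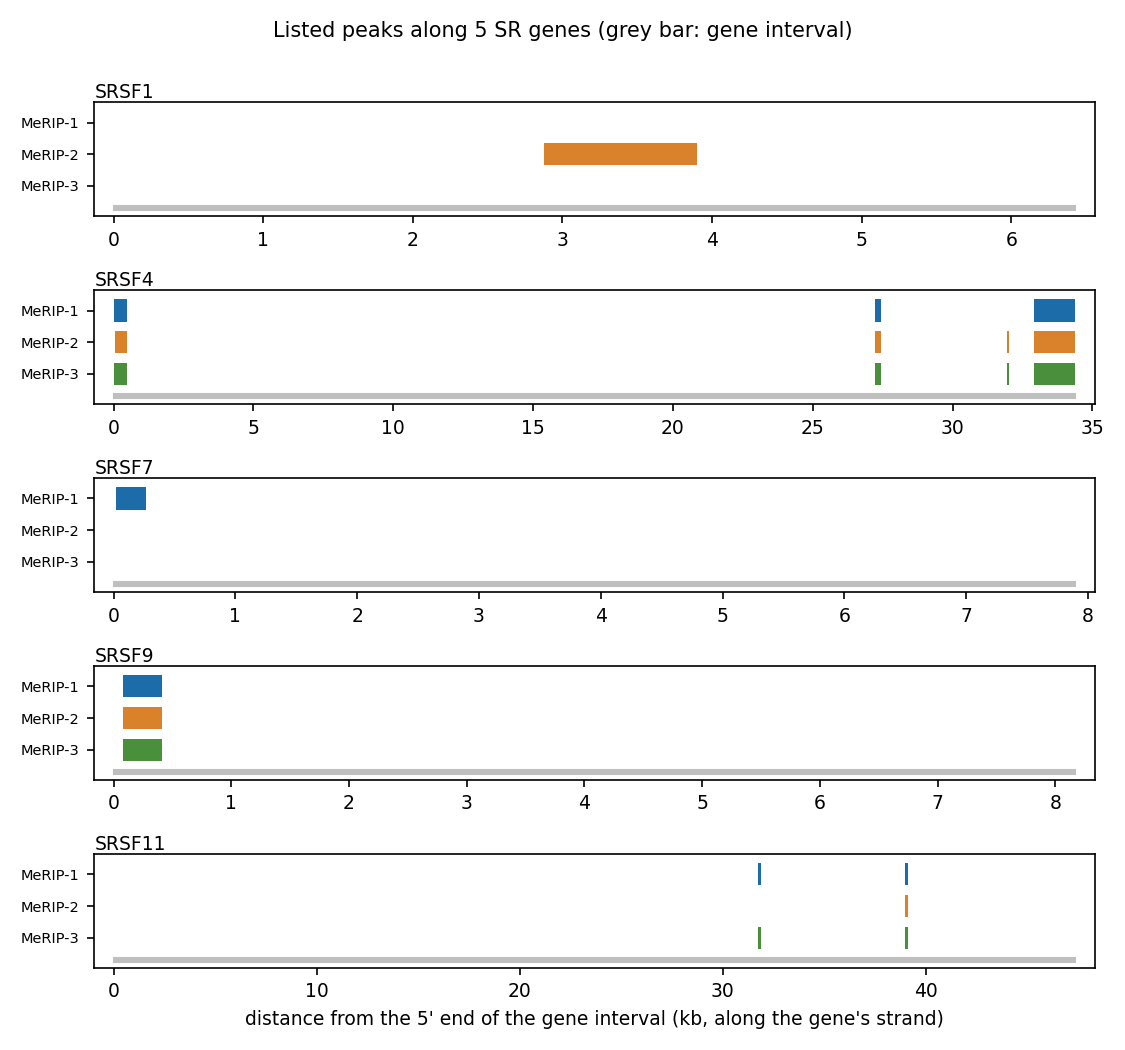
Listed peaks along the 5 SR genes that had any, as distance in kb from the 5' end of the gene interval (grey bar), with a row of blocks for each list. SRSF4 has peaks at both ends of the gene, SRSF7 and SRSF9 have theirs close to the 5' end, and SRSF11 has its 2 narrow peaks in the last part of the gene.

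The 9 regions fell at different places in their genes. The regions of SRSF4, SRSF7 and SRSF9 nearest the 5' end began 0, 19 and 82 bp from it, where the 0 of SRSF4 may be set by the interval. The other 3 SRSF4 regions lay from 79.6% to 100% of the way along the gene, those of SRSF11 at 67.2% and 82.6%, and that of SRSF1 at 53.2%. As background, m6A in mRNA is often found towards the 3' end of the transcript. The places given above are along genomic intervals, and exons and stop codons were not placed, so they cannot be set against that pattern. Antibodies to m6A are also known to bind m6Am, the methylated adenosine next to the cap, so peaks at the 5' end can hold either mark, and which was bound here was not tested.

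The first 30 transcribed bases of the 3 genes with a peak near the 5' end are printed here to show where their transcripts begin, with those of SRSF6, a gene with no listed peak that was picked because its window holds a motif. The windows need not lie under the peaks, and in hg19 the SRSF9 peak began 82 bp inside the gene interval. They are from RefSeq (GRCh38.p14), which held 9 of the 10 genes. SRSF2 had no entry. SRSF7 has 2 annotated starts, and both are given. Capitals mark a match on the transcribed strand to any of 5 motifs of the class that METTL3 prefers. The opposite strand was searched too, but its matches are not marked. The motifs were GGACT and GGACA, then GGACC with GAACT, and last AGACT.
SRSF4, chr1:29181871-29181900, minus strand: gcgtgctcgcgtacgtcgccggggttcggc
SRSF7, chr2:38751465-38751494, minus strand: agtctcttcagttccttccgcgtcgtttct
SRSF7, chr2:38751332-38751361, minus strand: gtagtgccgccgGGACTcttggcgggtgaa
SRSF9, chr12:120469719-120469748, minus strand: cccttcgcttccgctccgcgttcccacaat
SRSF6, chr20:43457896-43457925, plus strand: attgtgtggctGGACTcggccgcccctgtg

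On the transcribed strand, 3 of the 11 start windows of the group held a motif: the downstream start of SRSF7, SRSF6, and 1 of the 2 starts of SRSF11, where GGACA begins at base 25. The share over all 35116 RefSeq start windows of this length was 12.6%. On the opposite strand 1 of the 11 windows held a motif, the upstream start of SRSF7, again beside 12.6% of all windows. Among genes with no listed peak, SRSF6 had a motif on the transcribed strand, and SRSF3, SRSF5 and SRSF10 had none. Among genes with a listed peak, SRSF7 and SRSF11 had one, and SRSF1, SRSF4 and SRSF9 had none. Of these, only SRSF4, SRSF7 and SRSF9 had a peak near the 5' end. The SRSF1 peak lay 2874 bp from that end and the SRSF11 regions 31748 and 39007 bp from it. These windows cover 30 bases and were not placed in hg19, so no distance to a peak is given, and the lack of a match says only that these letters are not in the window. The search was chosen after the peaks at the 5' ends were seen.

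Recurrence between lists was near that of all regions. A peak in all 3 lists was found for 5 of the 9 SR regions (55.6%, 95% Wilson interval 26.7 to 81.1%), beside 59.3% of all 25737 regions. In 1 list alone there were 2 of 9, beside 22.8% of all regions. Of the 5 SR regions with a single peak in each list, 4 had identical edges in all lists, beside 72.7% of such regions overall. These shares were near those of all regions, and the interval from 9 regions is wide.

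In each list SR peaks scored higher at the median than other peaks did. Median scores were 2151.59 for the 7 SR peaks and 419.66 for the 21279 other peaks of MeRIP-1. They were 3100 for the 7 SR peaks and 421.74 for the 19844 others of MeRIP-2, and 3100 for the 7 SR peaks and 442.59 for the 20003 others of MeRIP-3. The difference of median log2 scores, SR peaks minus the rest, was 2.68 ± 0.28 (SD, n = 3 lists) and positive in 3 of 3 lists (exact two-sided sign-flip permutation test, p = 0.25, the smallest that 3 lists allow). The threshold thus could not be reached. The difference was 1.94 without SRSF4, and 0.78 when peaks below the median score of their list were left out on both sides. SRSF4 held 3, 4 and 4 of the 7 SR peaks of MeRIP-1, MeRIP-2 and MeRIP-3, so without it each SR median rests on few peaks. Of the 21 SR peaks, 12 were at the ceiling, beside 17.9% of all peaks. These 12 came from 5 regions, so they are not separate sites. With MeRIP-1 left out, 4 SR regions were at the ceiling in both other lists, against 2 in all 3 lists.

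SR peaks also had a smaller median width than other peaks in each list. Their median width was 247 bp in MeRIP-1, 334 bp in MeRIP-2 and 215 bp in MeRIP-3, against 415, 441 and 433 bp for other peaks. The mean difference was -164.3 ± 55.6 bp (SD, n = 3 lists; exact two-sided sign-flip permutation test, p = 0.25, the smallest that 3 lists allow). It was -59.2 bp among peaks of at most 1000 bp and -437.2 bp with peaks scoring below their list median left out. Among peaks of at most 150 bp, 5 of 7 SR peaks were at the ceiling, beside 2.88% of the 10815 such peaks in all lists. All 5 came from the 90 bp region of SRSF4 and the stronger 132 bp region of SRSF11. The limit of 150 bp was set after the widths were seen. The count was 3 without MeRIP-2 or without MeRIP-3, 3 without SRSF4, and 2 with a limit of 100 bp.

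**Figure D3:**
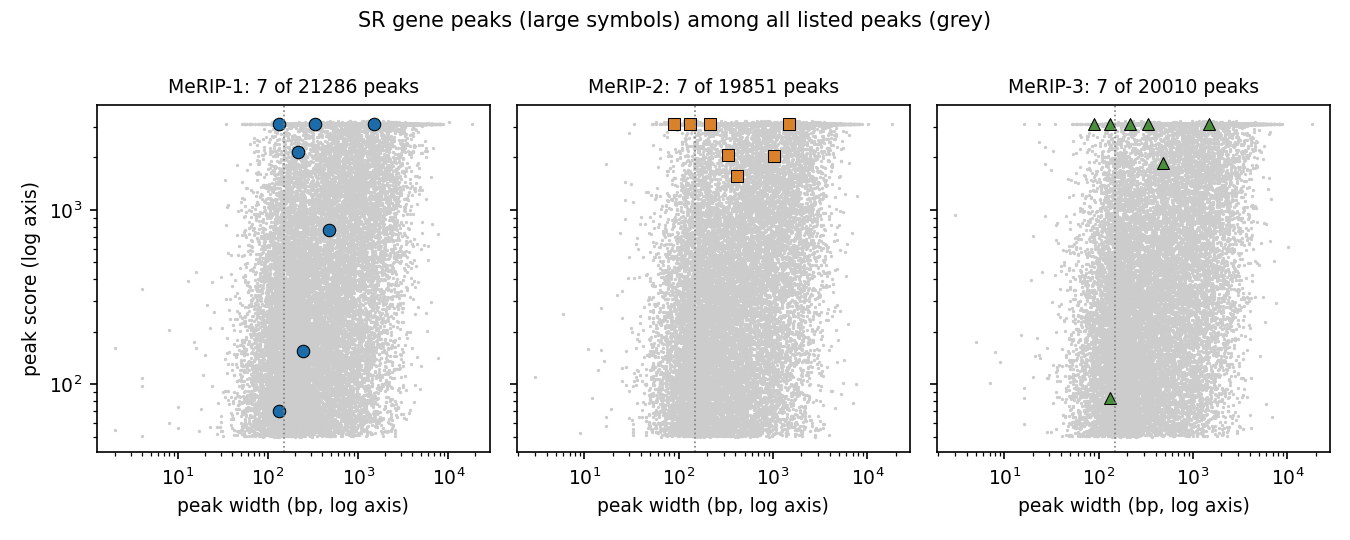
Width (bp, log axis) and deposited score (log axis) of every peak in each list, with the 7 SR peaks of the list as large symbols and all other peaks in grey; the dotted line marks 150 bp. The SR peaks left of that line at the top are the 132 bp peak of SRSF11 in all 3 lists and the 90 bp peak of SRSF4 in MeRIP-2 and MeRIP-3.

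The names of the peaks allowed a closer look at genes with no listed peak. Each name carries a number, and along every chromosome, both strands together, the numbers rose with position in all 21262, 19827 and 19986 pairs of neighbouring listed peaks of MeRIP-1, MeRIP-2 and MeRIP-3. A number missing between neighbours was read as a numbered peak that is not listed, but how the numbers were given is not stated, and rows may be absent from the lists used here. The lists are named as mRNA m6A lists. Whether peaks of other RNA classes were numbered and then kept out is not stated, and it was not tested. This reading was chosen after the lists were seen. Neighbours followed each other with no missing number in 36.9%, 39.7% and 40.2% of pairs. The mean was 3.52, 2.74 and 2.73 missing numbers per pair. A gap with no missing number leaves no numbered peak to place between the listed ones, apart from any that reached into the gap before edges were trimmed, which the lists do not show.

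SRSF3, the smallest SR protein and an adaptor for mRNA export, lay in such a gap in 2 lists. No number was missing between the listed peaks that flank it in MeRIP-1, which lay 73.5 kb downstream and 46.8 kb upstream. None was missing in MeRIP-3 either, where they lay 73.5 and 98.4 kb away. In MeRIP-2, 2 numbers were missing over a span of 73.5 kb downstream to 106 kb upstream. By these numbers no unlisted peak could be placed at SRSF3 in MeRIP-1 or MeRIP-3, and at most 2 in MeRIP-2.

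SRSF5, named SRp40, had 4 missing numbers around it in MeRIP-1, 1 in MeRIP-2 and 1 in MeRIP-3, with the nearest listed peak of its own strand 13.7, 14.7 and 17.8 kb away. SRSF10, a repressor of splicing when dephosphorylated, had 7, 8 and 2 missing numbers, and its nearest listed peak of the same strand was 156, 175 and 119 kb away. SRSF2, known as SC35, had 22, 2 and 19. Its gaps differed in length, reaching 463 kb upstream in MeRIP-1, 40.8 kb in MeRIP-2 and 463 kb in MeRIP-3. SRSF6, named SRp55, had 10, 3 and 13, in gaps that reached 1839.41 kb or more upstream. For these 4 genes the missing numbers leave room for unlisted peaks in every list, and their place within the gaps is unknown.

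**Figure D4:**
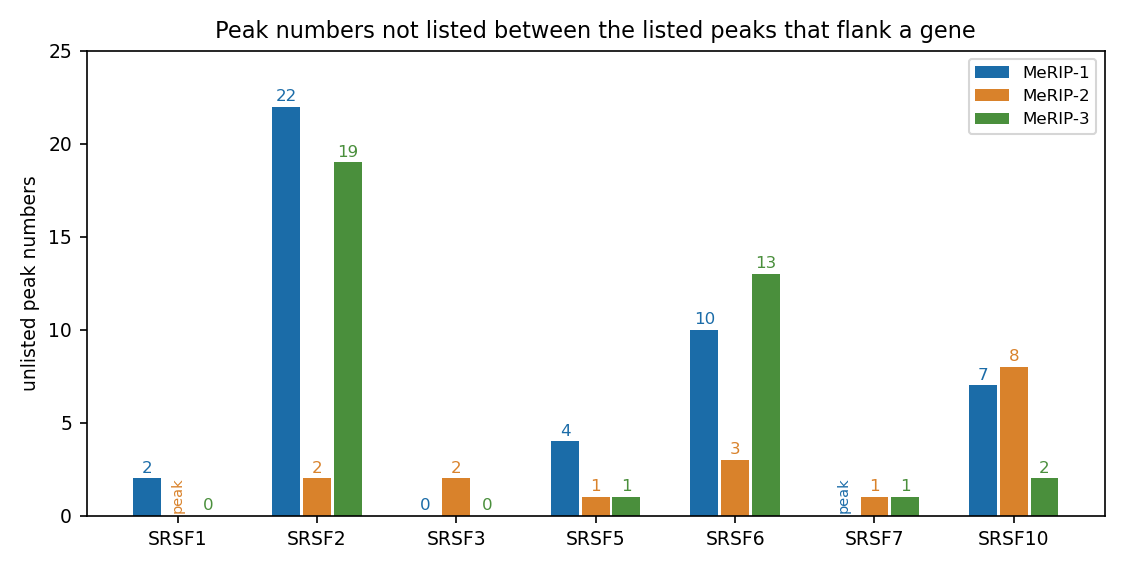
Count of peak numbers missing between the listed peaks on either side of a gene, for each gene and list with no listed peak (bars from MeRIP-1, MeRIP-2 and MeRIP-3; "peak" marks a list that has a peak in the gene). The count is 0 for SRSF1 in MeRIP-3 and for SRSF3 in MeRIP-1 and MeRIP-3, and highest for SRSF2, with 22 in MeRIP-1. The gaps differ in length, and that of SRSF2 in MeRIP-1 reached 463 kb upstream.

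Over the group, 19 of the 30 pairs of gene and list had no peak. In 3 of these no number was missing, in 4 a single number was missing, and in 12 there were 2 or more. Over all pairs of neighbouring listed peaks, none was missing in 36.9% in MeRIP-1, 39.7% in MeRIP-2 and 40.2% in MeRIP-3. Those gaps were not matched to these in length, so the counts are a description. Of the 3 pairs with none, 2 were in MeRIP-3, so 1 pair is left without that list.

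The same count was made where a region of the group was missing from some lists. The SRSF1 peak that scored 2029 in MeRIP-2 had no missing number around its place in MeRIP-3 and 2 around its place in MeRIP-1. The 90 bp region of SRSF4, at the ceiling in MeRIP-2 and MeRIP-3, had none around its place in MeRIP-1, where the listed peaks on either side, of 1489 and 215 bp, bore consecutive numbers. The SRSF7 peak had 1 missing number around its place in MeRIP-2 and 1 in MeRIP-3, and the weaker SRSF11 region had 1 in MeRIP-2. In all, 2 of 6 such places had no missing number, beside 7.27% of the 16310 places over all regions. Among the 124 regions at the ceiling in 2 lists and missing from the other one, 32 (25.8%) had none, so the SRSF4 region was not alone in this.

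Inside SRSF4, the 215 bp region and the 5' end region had consecutive numbers in MeRIP-1, while 2 numbers were missing between them in MeRIP-2 and 2 in MeRIP-3. At the borders of the gene intervals, a minus-strand peak of 289 bp shared 2 bp with the 5' end of SRSF11, a plus-strand gene, in all 3 lists. It scored 1664.65, 981.79 and 882.85 and was not counted, since its strand and centre lay outside the rule. A plus-strand peak lay 585 bp beyond the 3' end of SRSF9 in MeRIP-2 and 647 bp beyond it in MeRIP-3, with scores of 681.64 and 708.07.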

How the data were processed

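Per the labels' protocols, rRNA was removed from IP and input RNA and libraries were read as 150 bp paired ends. Per the submitters' processing notes, cutadapt 1.9.3, HISAT2 2.0.4 and hg19 were used. Peak names carry the word MACS; its version and settings, and any trimming of peaks, were not stated in the labels. The authors deposited a score per peak, from 50 to 3233.06; scores above 3100 were set to 3100 before log2. Read depth is unknown. Peaks sharing at least 1 bp on a strand were merged into regions. A peak's centre assigned it to an interval. Intervals of shares are Wilson intervals at 95% and reflect counting error alone. Lists are the replicates, compared by exact sign-flip permutation. The rule for naming was to give all 10 members with their peaks. The members, groupings and tests were chosen with earlier results of these data known. Other genes of the pathway were not analysed here, as no hg19 annotation was used. Alternatives covered the assignment rule, strand, merging, score and width limits, and leaving out a list. The merging and numbering code was tested on made-up lists. Coordinates of peaks are hg19, counted from 1. Scripts ran in Python 3.11.15 with pandas 2.3.3 and NumPy 2.4.6 for tables, SciPy 1.17.1 for intervals and Matplotlib 3.10.9 for plots.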

Additional observations from a re-analysis of the deposited data

How the results depend on the processing

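No paired analysis was possible because each list already combines an IP with its input and gives no value per library. Of 72 alternatives tried on the main values, 62 kept them within the limits set, 10 moved a count by more than 1.5 times and 0 reversed a direction. For the score and width differences the limit was an unchanged sign, so a change in their size was not counted as a move. With peaks of at most 1000 bp, 1 SR region was at the ceiling in all lists. Leaving out SRSF4, the width limits that define narrow peaks, the wider gene windows and the missing numbers were chosen after seeing the data. Without SRSF4, 2 regions were in all lists, 1 was at the ceiling and 2 had identical edges, and 3 narrow peaks were at the ceiling. With a limit of 100 bp that last count was 2. Leaving out a list in turn gave 2 to 4 regions at the ceiling, 3 to 4 narrow peaks at the ceiling, and 1 to 3 pairs of gene and list with no peak and no missing number. The score difference ran from 0.78 to 3.01 and the width difference from -437.2 to -59.2 bp. Counting peaks within 1000 bp of a gene on either strand gave 6 regions in all lists. A missing peak cannot be read as unmethylated RNA, since depth is unknown.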

Other observations

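On its own strand, SRSF11 was the most isolated gene of the group that had peaks. On the opposite strand, a listed peak shared 2 bp with its interval in all 3 lists. The nearest listed peak on the strand of SRSF11 lay 2517.34 to 2517.48 kb upstream and 6158.96 to 6375.57 kb downstream over the 3 lists. For SRSF4 the nearest same-strand peaks lay 10.7 kb upstream and 505 kb downstream in each list. For SRSF9 they lay 33.4 kb upstream and 16.7 kb downstream in each. For SRSF7 the nearest on its strand outside the gene was 109505 bp away in each list. These distances were chosen after the values were seen, and rows not in the files used here would change them.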
